A study of Mus musculus with 6 samples.

Results

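The genes described here are 9 components and readers of Hedgehog signaling and transcription factors of gut telocytes: *Foxl1*, *Foxf2*, *Sox6*, *Gli1*, *Gli2*, *Gli3*, *Ptch1*, *Hhip* and *Nkx2-3*. They were chosen by name, and all 9 are among the 19069 genes listed in the data and are listed on the plates of all 6 mice. Single cells were sorted from colon tumors that had been induced with the carcinogen azoxymethane and the colitis-inducing agent dextran sulfate sodium. The sort took viable cells negative for the epithelial marker EPCAM, the leukocyte marker CD45 and the endothelial marker CD31. The cells of 1 mouse went into the 384 wells of 1 plate, so that mouse and plate cannot be told apart. Mice 1, 3 and 4 were Zeb1Fib-Ctrl, without the Col6a1Cre transgene, and mice 2, 5 and 6 were Zeb1Fib-deleted, with the transgene. Both groups carried the floxed *Zeb1* alleles and both had the tumor protocol. Col6a1Cre is a constitutive transgene active in fibroblasts, and cells that escaped recombination cannot be told apart within the deleted group. No further treatment was given to either group, and the plate of mouse 6 came from another sequencing run than the other plates.

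In the gut, Hedgehog ligands are made by the epithelium and are received by the mesenchyme beneath it. PTCH1 is the receptor; without ligand it holds back the transducer SMO, and with ligand SMO drives the zinc finger factors GLI1, GLI2 and GLI3 to change transcription. *Gli1*, *Ptch1* and *Hhip* are themselves classical targets of the pathway, and PTCH1 and HHIP both bind ligand and so limit the signal. Telocytes are flat subepithelial fibroblasts that supply the epithelium with WNT and BMP proteins, and FOXL1 is the factor by which they were first marked in mice. FOXF2, SOX6 and NKX2-3 are further transcription factors of the intestinal mesenchyme.

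Of 2304 wells, 1233 held 100 to 6000 genes and under 10% mitochondrial transcripts. Each kept well was assigned to a class by lists of marker genes, none of which is one of the 9 genes. Fibroblast wells numbered 517 and fell into a telocyte-like class of 121 wells, an iCAF-like (inflammatory cancer-associated fibroblast) class of 194 wells and a class of 137 wells marked by *Cxcl13* and *Grem1*. Another 65 fibroblast wells received no subtype. Their median was only 1235 transcripts. Their 10 leading genes began with *Sfrp5* and *Beta-s* and included genes of skeletal muscle such as *Tnnt3*, *Mylpf* and *Ckm*. Pericyte-like wells numbered 79 and wells gated as smooth muscle 47. The leading genes of the telocyte-like class were *Saa3*, *Cxcl14*, *Nrg1* and *Wnt5a*, and 4 of its 8 markers were among its 10 leading genes. *Pdgfra*, a receptor gene of fibroblasts and telocytes, had a transcript in 97.5% of telocyte-like wells and in 20.3% of pericyte-like wells. Despite the sort, 456 wells were gated as immune and 102 as epithelial. The epithelial class was led by *Krt5*, *Krt14*, *Krt8* and *Cldn4*, with *Krt14* in 38.2% and *Epcam* in 60.8% of its wells. Whether these wells came from the tumor epithelium was not tested. The smooth muscle class was the least stable, since only 16 of its 47 wells kept that class when the gate used the number of detected markers instead of their level, and 87.2% of its wells held a transcript of the fibroblast gene *Dcn*. It is therefore described and not tested. Class medians lay between 10728 and 15234 transcripts per well for the 3 fibroblast subtypes, with 10963 for pericyte-like wells.

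The mice differed strongly in their wells. Mice 1 to 6 gave 163, 157, 16, 53, 117 and 11 fibroblast wells, of which 23, 47, 6, 32, 9 and 4 were telocyte-like and 68, 32, 5, 6, 80 and 3 iCAF-like. Mice 3 and 6 thus contributed few fibroblasts, and most subtyped fibroblasts of mouse 5 were iCAF-like. Levels are given as CPM, the estimated transcripts of a gene per 1000000 transcripts summed over the wells of 1 mouse or class. A level per class and mouse is given where at least 5 wells were present. Tests between classes used sums of at least 10 wells, which left mice 1, 2 and 4 for the telocyte-like and pericyte-like classes, mice 1, 2 and 5 for the iCAF-like class and mice 1 and 2 for the *Cxcl13*/*Grem1* class. The class comparisons share these 11 sums and are not independent of each other. With the mouse as a block in the test, only mice 1 and 2 set telocyte-like wells directly against the other fibroblast classes. Mouse 4 enters through its telocyte-like and pericyte-like sums, and mouse 5 has an iCAF-like sum only. Sums cannot tell fewer cells that use a gene from less RNA of it per cell, and for this reason the shares of wells with a transcript are given beside them.

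**Figure D1:**
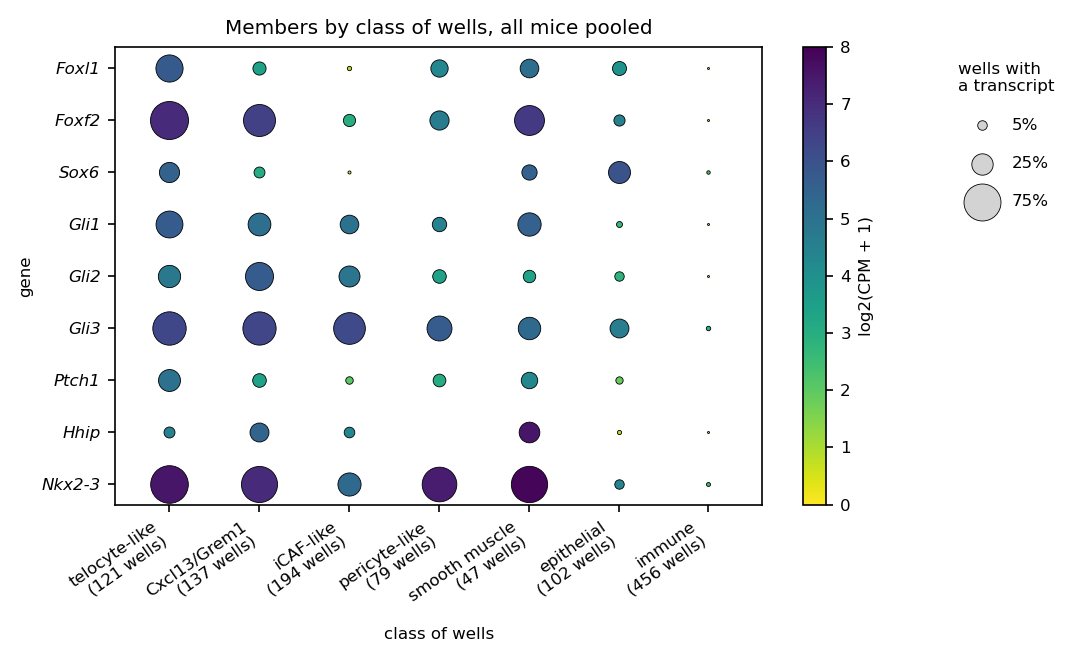
Share of wells with a transcript (dot area) and level (color, log2 of CPM plus 1) of the 9 genes in 7 classes of wells, all mice pooled; no dot means no transcript. *Foxl1*, *Foxf2* and *Ptch1* have their largest fibroblast dots in telocyte-like wells (40.5%, 79.3% and 26.4%), *Gli3* has dots of similar size in the 3 fibroblast subtypes, and *Hhip* and *Sox6* have none in pericyte-like wells.

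Averaged over mice, telocyte-like wells held the most *Foxl1*, *Foxf2*, *Sox6*, *Ptch1* and *Nkx2-3* of the fibroblast classes, while no difference was called for the 3 *Gli* genes and *Hhip*. Against the mean of the iCAF-like and *Cxcl13*/*Grem1* classes, 5 of the 9 genes were higher and none was lower (edgeR quasi-likelihood test with the mouse as a block, Benjamini-Hochberg adjusted p under 0.05 over 8710 genes). Of all genes tested, 6.61% were called higher in this comparison, 6.69% lower and 13.3% in either direction. The median log2 fold change was 1.46 over the 9 genes and 0.03 over all genes. 

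*Foxl1* lies on GRCm38 at chr8:121127940-121130644, 39.8 kb past the end of *Foxf1*, another forkhead gene of the gut mesenchyme. It had 69.4, 41.0, 34.9, 68.5 and 70.1 CPM in the telocyte-like wells of mice 1 to 5, and mouse 6 had no transcript in its 4 wells. In iCAF-like wells it was at 2.24 CPM in mouse 1 and at 0 in the others, 2 transcripts in 194 wells in all. Every telocyte-like value of mice 1 to 5 was thus above every iCAF-like value and, with 27.6 CPM as the highest, above every *Cxcl13*/*Grem1* value. The log2 fold change for telocyte-like against the other fibroblast wells was 3.63 ± 0.54 (SE, edgeR adjusted p = 9.76e-05). A transcript was found in 49 of 121 telocyte-like wells (40.5%), in 9.49% of *Cxcl13*/*Grem1* wells, in 1.03% of iCAF-like wells and in 1 of 456 immune wells (0.22%), which are much shallower. With every well thinned to 2000 barcodes, the share was 8.69% in telocyte-like wells, 1.74% in *Cxcl13*/*Grem1* wells, 0.20% in iCAF-like wells and 0.50% in immune wells, so that the iCAF-like share is at the level of background. *Foxl1* was also counted in wells gated outside the fibroblasts, in 16.5% of pericyte-like, 19.1% of smooth muscle and 10.8% of epithelial wells. The fibroblast gene *Dcn* had a transcript in 88.6% of pericyte-like and 67.6% of epithelial wells. With the gate by detected markers, 55 of the 79 pericyte-like and 65 of the 102 epithelial wells kept their class. Whether these *Foxl1* transcripts were made by the gated cell types was not tested. The pericyte-like class did not differ from the fibroblast classes by the test (log2 fold change 0.94 ± 0.58, edgeR adjusted p = 0.31). Telocyte-like wells held 55.4% of all *Foxl1* transcripts.

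*Foxf2*, at chr13:31625816-31631403, had 113, 105, 198, 188 and 148 CPM in the telocyte-like wells of mice 1 to 5. In *Cxcl13*/*Grem1* wells it had 80.8, 78.8, 175 and 114 CPM in mice 1, 2, 4 and 5. In each of these 4 mice the telocyte-like value was the higher of the pair, although the ranges over mice overlap. In iCAF-like wells it did not exceed 10.5 CPM in mice 1 to 5. The difference was 1.89 ± 0.28 on the log2 scale for telocyte-like against the other fibroblasts (edgeR adjusted p = 9.15e-05). iCAF-like wells were lower than *Cxcl13*/*Grem1* wells by a log2 fold change of -2.91 ± 0.39 (edgeR adjusted p = 8.84e-05). The shares of wells followed the same order, with 79.3% of telocyte-like, 56.2% of *Cxcl13*/*Grem1*, 20.3% of pericyte-like and 8.25% of iCAF-like wells.

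*Sox6* encodes an HMG-box factor known from cartilage and muscle and spans 567.9 kb at chr7:115470872-116038796. Its level in telocyte-like wells was 49.1, 12.1, 58.1, 91.3 and 101 CPM in mice 1 to 5, with mouse 2 well below the other 4. The value of mouse 5 came from a single well of 9. In *Cxcl13*/*Grem1* wells mice 1, 2, 4 and 5 had 1.42, 6.75, 9.19 and 68.4 CPM, the last from 6 transcripts in 7 wells, and each was below the telocyte-like value of the same mouse. In iCAF-like wells 1 transcript was counted in 194 wells, and in pericyte-like wells none in 79, which allows up to 3.80% of wells with a transcript. Set against the 3 transcripts that a count of 0 allows if transcripts fall independently, telocyte-like wells were 14.0-fold higher. Positive telocyte-like wells held 3.04 *Sox6* transcripts on average, so this fold is not a lower bound. By wells, 22.3% of telocyte-like wells had a transcript, against the 3.80% allowed. Telocyte-like wells were higher than other fibroblasts by 3.59 ± 0.82 on the log2 scale (edgeR adjusted p = 0.0058). This call rested on mouse 1: without it the log2 fold change was 3.31 and the adjusted p was 0.27, and without mouse 4 the gene had too few counts to be tested. *Sox6* was also counted in wells gated outside the mesenchyme. It was found in 26.5% of epithelial wells and in 7 of the 11 wells gated as glial, and it reached 60.7 CPM in epithelial wells against 44.7 CPM in telocyte-like wells, all mice pooled.

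*Nkx2-3*, a homeobox gene of the gut and spleen mesenchyme at chr19:43612325-43615892, was the most widely spread of the factors. In telocyte-like wells it had 295, 188, 93.0, 147 and 101 CPM in mice 1 to 5. In iCAF-like wells it had 36.9, 50.6, 57.4, 44.0 and 21.4 CPM, below the telocyte-like value in each of the 5 mice. In *Cxcl13*/*Grem1* wells it had 136, 123, 184 and 68.4 CPM in mice 1, 2, 4 and 5, below the telocyte-like value in mice 1, 2 and 5 and above it in mouse 4. The log2 fold change was 1.46 ± 0.22 for telocyte-like against other fibroblasts (edgeR adjusted p = 0.00012) and -1.47 ± 0.30 for iCAF-like against *Cxcl13*/*Grem1* wells (edgeR adjusted p = 0.0046). The second call was lost without mouse 1 (adjusted p = 0.22). Pericyte-like wells had 208, 167 and 183 CPM in mice 1, 2 and 4, and none in the 6 wells of mouse 5. They were called higher than the fibroblast classes by 0.73 ± 0.22 (edgeR adjusted p = 0.020), but this call was lost under 7 of 13 alternatives, with adjusted p between 0.016 and 0.48 over all 13. Leaving out mouse 3 or 6, which have no sum in this test, was among the 13 and could not change the call. Of the 9 genes, *Nkx2-3* alone had a transcript in over 60% of both telocyte-like (77.7%) and pericyte-like wells (65.8%).

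*Nkx2-3* was also the only member with a match to the core of the GLI binding site in its promoter, and that stretch is shown for this reason. RefSeq promoter windows of GRCm38.p6, from 250 bases before to 50 bases after a gene's start, were found for 7 of the 9 genes (*Gli1* and *Foxl1* were not matched). The core CCACCCA, searched on both strands, was in 9.31% of 32817 windows and, among the 12 windows of these 7 genes, in 1. The full site GACCACCCA, which contains this core, was in 0.25% of all windows and in none of the 12. The match lies 143 bases before the start of *Nkx2-3*, at chr19:43612172-43612198 on the plus strand, where the capitals mark the core as it reads from the other strand.
Nkx2-3: aacatcccacTGGGTGGacgcagaggg

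*Ptch1*, the Hedgehog receptor and a target of the pathway, is at chr13:63508328-63573598 and was sparse, with 57 transcripts in all telocyte-like wells. These were 60.7, 46.5 and 45.6 CPM in mice 1, 3 and 4 and 13.3 and 7.79 CPM in mice 2 and 5. No iCAF-like value of mice 1 to 5 exceeded 14.4 CPM. Telocyte-like wells were higher than other fibroblasts by 2.61 ± 0.59 on the log2 scale (edgeR adjusted p = 0.0046). Without mouse 1 the log2 fold change was 1.55 and the adjusted p was 0.62, and without mouse 4 *Ptch1* was too low to be tested. A transcript was found in 26.4% of telocyte-like, 10.2% of *Cxcl13*/*Grem1*, 8.86% of pericyte-like and 3.09% of iCAF-like wells, and in none of 456 immune wells. Telocyte-like wells held 53.8% of all *Ptch1* transcripts.

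**Figure D2:**
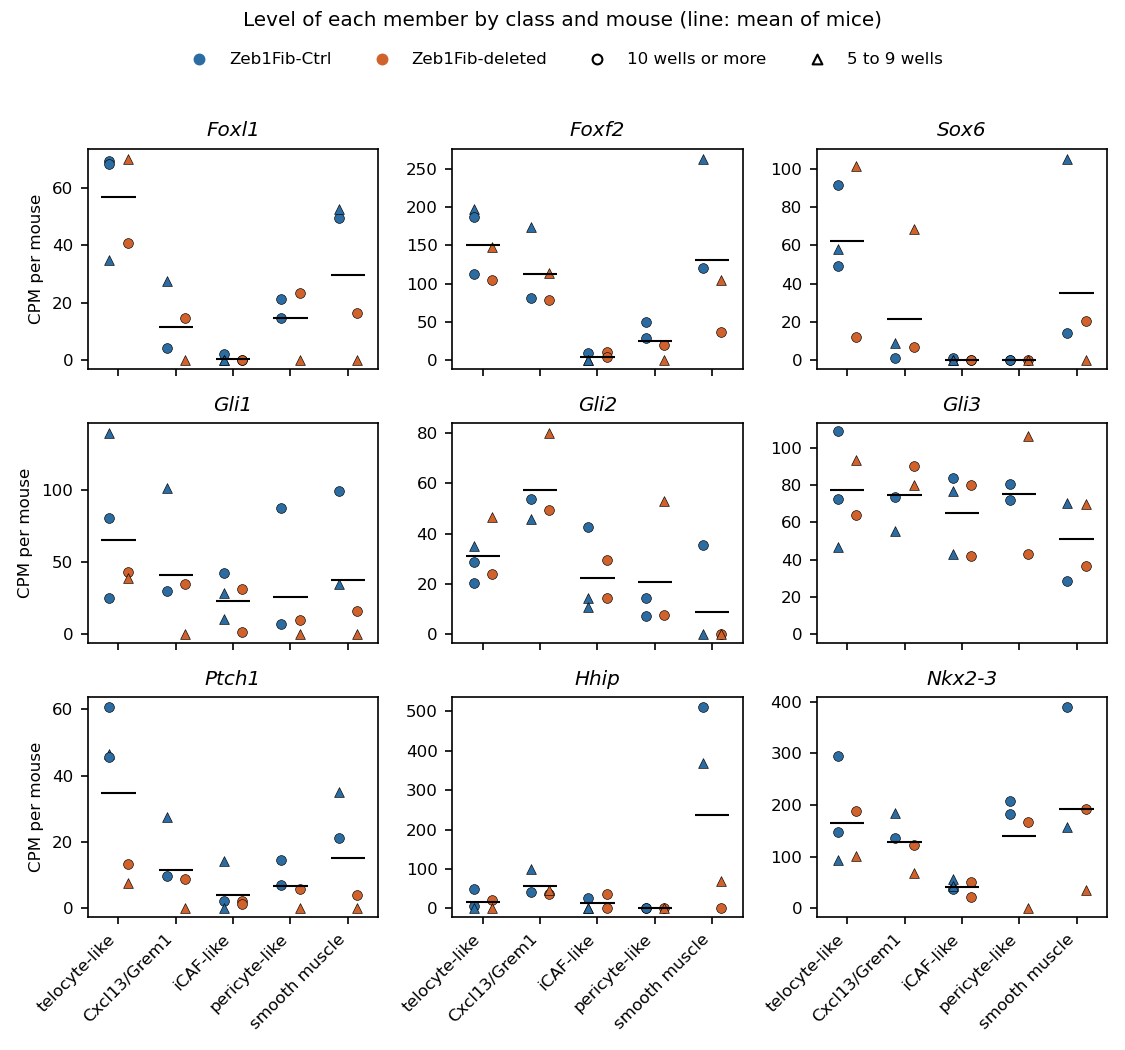
CPM of each gene per mouse in 5 classes of wells, for mice with at least 5 wells (circles 10 wells or more, triangles 5 to 9 wells; colors give the genotype, lines the mean of mice). *Foxl1*, *Foxf2* and *Sox6* lie at or near 0 in iCAF-like wells, *Gli3* has a similar mean in the 4 left classes, and *Hhip* lies at 0 in every pericyte-like value.

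*Gli1*, the activator whose transcription is the usual readout of the pathway, is at chr10:127329882-127341974. It had 65.6 ± 46.2 CPM in telocyte-like wells (SD over mice 1 to 5, n = 5), 41.5 ± 42.7 in *Cxcl13*/*Grem1* wells (n = 4), 23.0 ± 16.5 in iCAF-like wells (n = 5) and 26.2 ± 41.3 in pericyte-like wells (n = 4). It was detected in 39.7% of telocyte-like, 28.5% of *Cxcl13*/*Grem1*, 19.1% of iCAF-like and 11.4% of pericyte-like wells. Within mice, the telocyte-like level was above the iCAF-like level in each of mice 1 to 5, by 11.8 to 111 CPM. Against *Cxcl13*/*Grem1* wells it was higher in mice 1, 2 and 5 and lower in mouse 4. The telocyte-like contrast was 0.29 ± 0.46 on the log2 scale (edgeR adjusted p = 0.80) and that of iCAF-like against *Cxcl13*/*Grem1* wells 0.31 ± 0.56 (edgeR adjusted p = 0.86). In telocyte-like wells the 5 mice had 80.9, 43.4, 140, 25.4 and 38.9 CPM, and the highest of these, mouse 3, rests on 6 wells. In iCAF-like wells mouse 5, with 80 wells, was at 1.43 CPM, and mouse 6 had 13 transcripts in only 3 wells.

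*Gli2*, the main activator that relays the signal, is at chr1:118834132-119053619 and was highest in *Cxcl13*/*Grem1* wells. There it had 53.9, 49.5, 46.0 and 79.9 CPM in mice 1, 2, 4 and 5. Telocyte-like wells of the same mice had 28.9, 24.1, 20.3 and 46.7 CPM, lower in each of the 4. The telocyte-like contrast, which sets them against both other classes, was -0.89 ± 0.34 on the log2 scale and did not pass (edgeR adjusted p = 0.11). *Gli2* was lower in pericyte-like wells than in the fibroblast classes by a log2 fold change of -2.07 ± 0.47 (edgeR adjusted p = 0.0028), with 7.17, 7.78 and 14.6 CPM in mice 1, 2 and 4. Only 9 transcripts were counted in all pericyte-like wells, 2 of them in mouse 5 at 53.0 CPM. The call was lost without mouse 2 (adjusted p = 0.13) and with the gate by detected markers (adjusted p = 0.13). Of all genes, 10.7% were called lower in pericyte-like wells, 10.1% higher and 20.8% in either direction, beside 2 lower and 1 higher of the 9.

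*Gli3*, which acts mainly as a repressor when the pathway is silent, is at chr13:15463235-15730026 and differed little between the fibroblast subtypes. Its means over mice were 77.0 ± 24.6 CPM in telocyte-like, 74.7 ± 14.7 in *Cxcl13*/*Grem1*, 65.2 ± 20.8 in iCAF-like and 75.3 ± 26.1 in pericyte-like wells (SD, n = 5, 4, 5 and 4 mice). The pericyte-like mean includes 106 CPM in mouse 5, from 4 transcripts in 1 of 6 wells. With all mice pooled, pericyte-like wells had 51.0 CPM against 72.8 to 79.5 CPM in the fibroblast subtypes. None of the 3 class contrasts passed, with log2 fold changes of -0.21 ± 0.27, -0.22 ± 0.31 and -0.62 ± 0.29 and edgeR adjusted p of 0.73, 0.80 and 0.15. The shares of wells were 61.2%, 60.6% and 55.2% in the fibroblast classes and 34.2% in pericyte-like wells.

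*Hhip*, the membrane inhibitor that binds Hedgehog ligands, is at chr8:79965851-80058006 and was distributed unlike the other target genes. No transcript was counted in 79 pericyte-like wells of the 6 mice, which allows up to 3.80% of wells. Against the 3 transcripts that this 0 allows if transcripts fall independently, *Cxcl13*/*Grem1* wells were 13.2-fold and telocyte-like wells 6.67-fold higher. Positive wells of these classes held 2.96 and 4.88 *Hhip* transcripts on average, so these folds are not lower bounds. By wells, 19.7% and 6.61% had a transcript, against the 3.80% allowed. The edgeR test called the pericyte-like class lower (adjusted p = 0.00013). The call held in all 13 alternatives. Leaving out mouse 3 or 6, which have no sum in this test, is among them and could not change it. Among fibroblasts, *Cxcl13*/*Grem1* wells led with 42.5, 36.0, 101 and 45.6 CPM in mice 1, 2, 4 and 5. Telocyte-like wells had 5.78, 21.8, 0, 48.2 and 0 CPM in mice 1 to 5, and their contrast did not pass (log2 fold change -1.26 ± 0.47, edgeR adjusted p = 0.092). The gene was carried by few wells. It was seen in 61 wells, and 16 wells with 5 transcripts or more held 70.3% of its 276 transcripts. Wells gated as smooth muscle made up 6 of these 16 and included the highest pair, with 26.1 and 22.1 transcripts in a well of mouse 1 each. Over smooth muscle wells *Hhip* had 511, 0, 369 and 69.6 CPM in mice 1, 2, 4 and 5, so that mouse 2 with 17 such wells had none. With the gate by detected markers only 3 of the 16 wells were called smooth muscle.

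**Figure D3:**
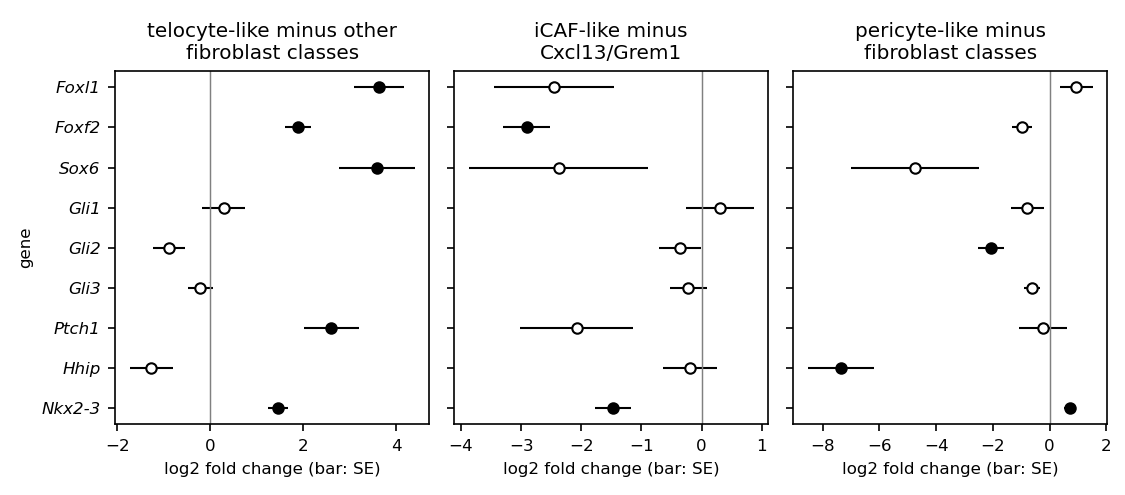
Log2 fold changes of the 9 genes (points; bars are ± 1 SE from edgeR) in the 3 comparisons between classes, filled where the adjusted p over all genes was under 0.05. In the left panel 5 genes are filled and to the right of 0; *Hhip* and *Sox6* have no transcript in pericyte-like wells, so that their fitted values in the right panel depend on the prior count and are not bounds.

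In the comparison of iCAF-like with *Cxcl13*/*Grem1* wells, which rests on mice 1 and 2, 2 of the 9 genes were lower, *Foxf2* and *Nkx2-3*, and none was higher. Of all genes 2.93% were called lower and 5.84% in either direction. *Foxl1* and *Ptch1*, with log2 fold changes of -2.46 ± 0.99 and -2.08 ± 0.94, did not pass (edgeR adjusted p = 0.20 and 0.26). The 3 GLI genes and *Hhip* had differences of at most 0.36 in size.

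Several of the 9 genes were often found in the same telocyte-like well. Whether they met in wells more often than their single shares imply was not tested. The median telocyte-like well held transcripts of 4 of the 9 genes, against 3 in *Cxcl13*/*Grem1*, 2 in pericyte-like and 1 in iCAF-like wells. Transcripts of 5 or more were found in 38.8% of telocyte-like wells, 16.8% of *Cxcl13*/*Grem1* wells, 12.8% of smooth muscle wells, 2.06% of iCAF-like wells and 1.27% of pericyte-like wells. Of the 49 telocyte-like wells with *Foxl1*, 17 also held *Sox6* (34.7%), against 10 of the 72 wells without *Foxl1* (13.9%). *Gli1* was found in 51.0% of the wells with *Foxl1* and in 31.9% of those without. *Ptch1* was found in 26.5% and 26.4%. The wells with *Foxl1* were deeper, with medians of 16918 and 13768 transcripts, and wells of 1 mouse share their source, so these shares are given as a description; the part of depth was not tested.

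The rest of the pathway was followed by a list of 30 genes, of which 18 had enough counts to be tested between classes. All 3 ligand genes were at the edge of detection. *Shh* and *Ihh* had 12 transcripts each in all kept wells, and epithelial wells had 8.93 and 8.04 CPM of them, against 0.16 and 0.48 CPM in all fibroblast wells. *Dhh* had 2 transcripts. Of the genes for ligand release, *Scube1*, which encodes a secreted protein that helps to free Hedgehog ligands, had 449 CPM in telocyte-like, 237 in *Cxcl13*/*Grem1*, 28.9 in iCAF-like and 6.37 in pericyte-like wells.

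Between telocyte-like and other fibroblast wells, 13.3% of all genes were called in either direction. Among the 18 tested genes of the list, 3 were higher and 2 lower in telocyte-like wells (median log2 fold change -0.03, against 0.03 over all genes). The higher ones were *Scube1* (2.48 ± 0.22, edgeR adjusted p = 2.74e-07), the growth factor gene and Hedgehog target *Bmp4* (1.20 ± 0.26, adjusted p = 0.0030) and the cyclin gene *Ccnd1* (2.65 ± 0.47, adjusted p = 0.00056). The lower ones were the co-receptor gene *Gas1* (-3.87 ± 0.48, adjusted p = 1.24e-05) and the factor gene *Osr1* (-1.98 ± 0.38, adjusted p = 0.0012). Co-receptors help PTCH1 to bind ligand, and all 3 of them were higher in iCAF-like than in *Cxcl13*/*Grem1* wells. *Gas1* differed there by 4.14 ± 0.37 (edgeR adjusted p = 8.04e-07), *Cdon* by 4.05 ± 0.85 (adjusted p = 0.0056) and *Boc* by 1.58 ± 0.29 (adjusted p = 0.0020). In that comparison the list had 3 genes higher and 2 lower, the latter *Scube1* and *Bmp4*, beside 5.84% of all genes in either direction. Pericyte-like wells had 8 of the 18 lower and 2 higher, beside 20.8% of all genes called in either direction. The median of the 18 was -0.94 against -0.02 over all genes. *Smo* was among the lower ones (-1.11 ± 0.27, adjusted p = 0.0051), as were *Boc* (-2.67 ± 0.40, adjusted p = 4.11e-05) and *Bmp4* (-3.74 ± 0.31, adjusted p = 2.59e-08). *Spop* (0.79 ± 0.19, adjusted p = 0.0055) and *Ccnd1* (3.02 ± 0.36, adjusted p = 2.83e-06) were higher. *Csnk1a1*, among the 3 most abundant genes of the list, passed in none of the comparisons.

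Of 16 further transcription factors of the gut mesenchyme, 14 could be tested, and they moved in both directions. In telocyte-like wells 2 were higher and 5 lower than in other fibroblasts, beside 13.3% of all genes called in either direction. *Foxf1*, another forkhead gene, was higher by 0.93 ± 0.27 (edgeR adjusted p = 0.024), and *Sox5*, a relative of *Sox6*, by 1.68 ± 0.44 (adjusted p = 0.013). Among the lower ones were *Meis1*, *Meis2*, *Prrx1* and *Osr1*, with log2 fold changes from -1.98 to -1.62. iCAF-like wells, where *Foxf2* and *Nkx2-3* were low, had more *Prrx1* (2.10 ± 0.40, adjusted p = 0.0025), *Meis1*, *Twist1* and *Twist2* and less *Tcf21* and *Zeb2* than *Cxcl13*/*Grem1* wells. In pericyte-like wells 3 were higher and 6 lower, beside 20.8% of all genes called in either direction. *Nr2f2*, a nuclear receptor gene of vessels, was higher by 2.92 ± 0.25 (adjusted p = 2.81e-08) and *Sox5* by 1.91 ± 0.38 (adjusted p = 0.00087), the latter beside the absence of any *Sox6* transcript.

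The genes whose levels ranked most like those of a member over the 11 class sums were as follows. *Foxl1* was followed by *Htra1* (Spearman rho 0.99), *Itgav* and *Leprotl1*, and *Foxf2* by *Serinc5* (0.99), *Akap7* and *Dkk3*. *Sox6* was followed by *Tenm3* (0.95), *F2r* and *Pi4ka*, and *Nkx2-3* by *Nol9* (0.96), *Smad6* and *Armcx2*. *Ptch1* was followed by *Pign* (0.95), *Itm2c* and *Sema3f*, and *Hhip* by *Ahi1* (0.95), *Pdlim4* and *Fbln5*. For *Gli2* these were *Npc2* (0.95), *Add3* and *Stxbp6*. *Gli1* and *Gli3* had no gene as close, with *Pdpk1* (0.87), *Pigx* and *Chchd1* for the former and *Arsa* (0.80), *Slmo2* and *Creg1* for the latter. Each is the best of 4797 or 4798 genes over only 11 sums from 4 mice and serves as a description.

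The remaining comparison asks whether the deletion of *Zeb1* changed these genes in tumor fibroblasts. *Zeb1* itself had 116, 88.9 and 95.9 CPM in the fibroblast wells of the Zeb1Fib-Ctrl mice 1, 3 and 4 and 58.7, 75.1 and 36.3 CPM in the Zeb1Fib-deleted mice 2, 5 and 6, so that the groups did not overlap. The means were 100.3 ± 14.1 and 56.7 ± 19.5 CPM (SD, n = 3). The log2 fold change was -0.73 ± 0.29, which did not pass over all genes (edgeR adjusted p = 0.99995). The protocol counts transcripts at their 3′ end, and whether the tag lies in the deleted part of *Zeb1* is not given in the sources used here, so that transcripts counted in deleted mice are no measure of escape.

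None of the 9 genes was called different between the genotypes in fibroblast wells by edgeR's quasi-likelihood test over 8251 genes, and none had an unadjusted p under 0.05. Of all genes 0% were called, 122 had an unadjusted p under 0.05, and DESeq2 called 0 genes with 73 at an unadjusted p under 0.05, none of them a member. Log2 fold changes for deleted against control were negative for 8 of the 9 genes, with a median of -0.63, against -0.0034 over all genes. *Ptch1* (-1.33 ± 0.63), *Sox6* (-1.22 ± 0.72) and *Foxl1* (-0.82 ± 0.63) had the lowest values, and *Gli3* the only positive one (0.09 ± 0.28). *Gli1*, *Gli2*, *Gli3* and *Nkx2-3* changed sign when single mice were left out.

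Per mouse, *Ptch1* had 14.9, 24.7 and 33.5 CPM in fibroblast wells of control mice and 10.8, 2.06 and 24.2 CPM in those of deleted mice. The groups overlap through mouse 6, whose value rests on 4 transcripts in 11 wells. *Foxl1* had 14.9, 14.8 and 47.9 CPM in controls and 21.5, 9.26 and 0 CPM in deleted mice. Mouse 4, in which 32 of 53 fibroblast wells were telocyte-like, had the highest *Foxl1*, *Foxf2*, *Sox6*, *Ptch1* and *Hhip* of all mice. Mouse 5, with 80 iCAF-like and 9 telocyte-like wells, had the lowest *Gli1*, *Foxf2*, *Ptch1*, *Hhip* and *Nkx2-3*. The make-up of the fibroblast wells thus differed between mice together with these levels, and its part in the differences was not tested in this fit.

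**Figure D4:**
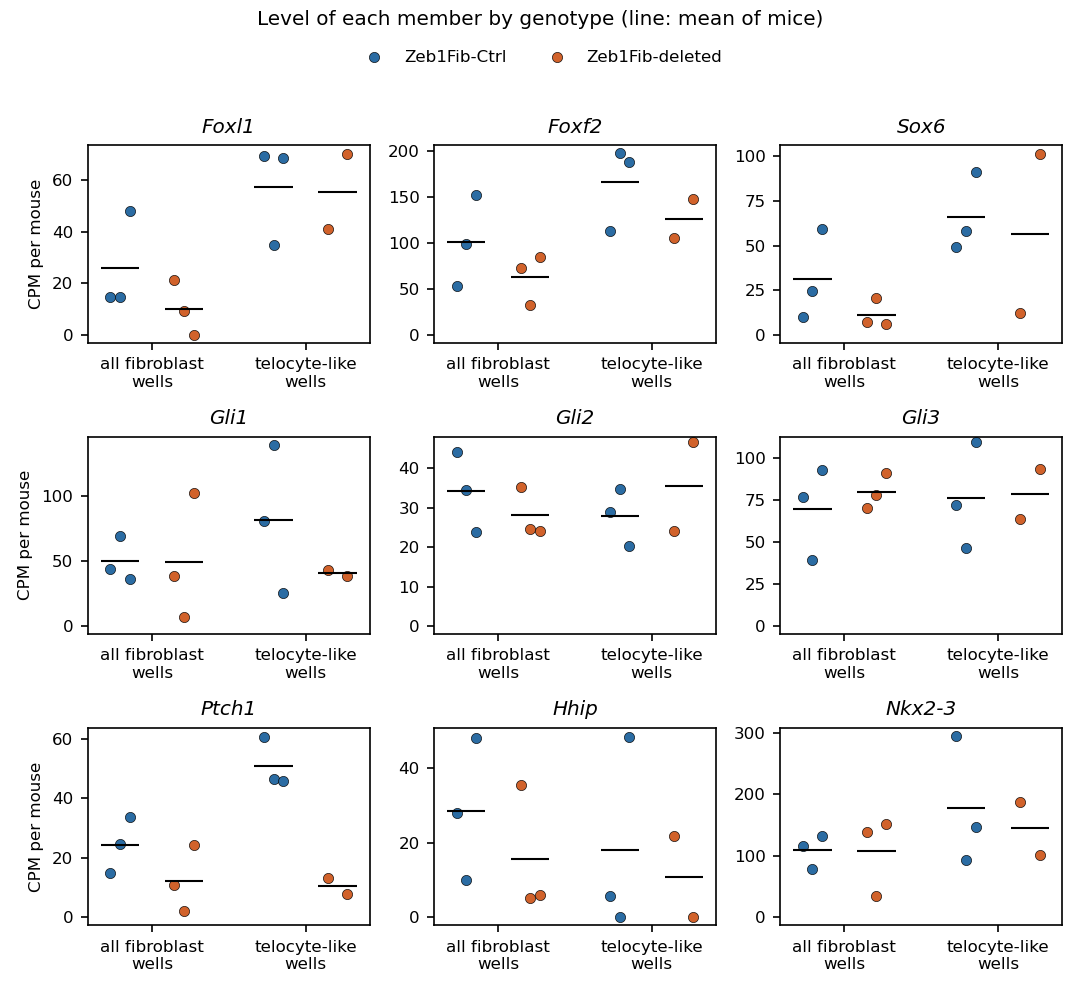
CPM of each gene per mouse in all fibroblast wells (6 mice) and in telocyte-like wells (5 mice with at least 5 wells), by genotype; lines are means. In telocyte-like wells the 3 control values of *Ptch1* (45.6 to 60.7 CPM) lie above both deleted values (7.79 and 13.3 CPM), while for the other 8 genes the groups overlap.

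Within telocyte-like wells, 1 of the 9 genes did not overlap between the 3 control and the 2 deleted mice with at least 5 wells. This was *Ptch1*, with means of 50.9 CPM in controls and 10.5 CPM in deleted mice. Among all genes with at least 50 transcripts there, 19.3% did not overlap, so that 1 of 9 is no more than the background. The 2 deleted values rest on 11 and 1 transcripts, and that of control mouse 3 on 4 transcripts in a single well of 6. Mouse 6, with 2 transcripts in 4 wells, would stand at 38.2 CPM, close to the controls. *Foxl1* had nearly the same mean telocyte-like level in both groups of these 5 mice. It had 69.4, 34.9 and 68.5 CPM in controls and 41.0 and 70.1 CPM in deleted mice. Mouse 6 had no *Foxl1* transcript in its 4 wells. No member was without overlap in iCAF-like wells, against 15.3% of genes with at least 50 transcripts there. In *Cxcl13*/*Grem1* and in pericyte-like wells, where each genotype has 2 mice, 3 members each were without overlap. Of genes with at least 50 transcripts in these classes, 29% and 28.1% were. The members were counted without this limit, and in pericyte-like wells only *Nkx2-3* reached it. *Ptch1* was without overlap in both classes and lower in the deleted mice in each, on 18 and 7 transcripts over all mice.

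The share of fibroblast wells with a transcript was compared at equal depth. Wells under 2000 barcodes were left out and the others were thinned to 2000. The exact two-sided permutation test over 3 against 3 mice cannot go below p = 0.10. *Sox6* reached it, with 1.87%, 6.12% and 9.16% of wells in control mice and 1.39%, 1.17% and 1.19% in deleted mice (exact permutation p = 0.10, adjusted over the 9 genes p = 0.60). It was the only gene of the 9 without overlap, against 6.59% of 9347 genes with at least 50 transcripts. The separation was gone without thinning and with thinning to 1000 barcodes. *Ptch1* followed with 4.04 ± 1.35% in control and 1.99 ± 1.70% in deleted mice (SD, n = 3, exact permutation p = 0.20). *Foxl1* had 4.31 ± 2.61% and 1.42 ± 1.68% (exact permutation p = 0.30) and *Gli1* 9.13 ± 3.80% and 8.22 ± 7.46% (exact permutation p = 0.90).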

How the data were processed

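Wells were measured by SORT-seq, in which transcripts carry a well barcode and a molecular barcode. Alignment of the reads by the authors used bwa and the transcriptome of GRCm38, and a script of the sequencing provider did the counting. The submitters' processing notes also name Cell Ranger 2.1.1. Of the 2 deposited tables, one holds barcode counts, whole numbers of molecular barcodes for each gene in each well. The other holds transcript counts, which are estimated counts that the authors obtained by correcting for molecules sharing a barcode. Spike-in rows (7.85% to 18.6% of a plate's transcripts) were left out.

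Wells had 100 to 6000 genes and under 10% mitochondrial transcripts. Each went to the marker list with the highest mean scaled level, if at least 3 of its markers were detected. Of the kept wells 43 lay within 0.2 of another broad class, and 15 fibroblast wells within 0.2 of another subtype. No doublet caller was run. Plates held 1575730 to 3699060 transcripts in all wells and 165466 to 2232340 in fibroblast wells, which limits precision for the sparse genes. Limits given for counts of 0 cover counting error only.

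Sums of the estimated counts per mouse, or per mouse and class, were rounded. The test was the quasi-likelihood test of edgeR 4.0.16 with TMM factors, filterByExpr and a Benjamini-Hochberg threshold of 0.05; DESeq2 1.42.0 served as a second tool. The SE of a fold change is its size divided by the root of the F statistic. The scripts were tested on simulated data. Thinned shares are expected values, computed without random draws. The genes and lists were chosen with earlier results of these data known. Named were the 9 genes, *Zeb1* and, from both lists, genes that passed in a comparison and the 3 most abundant. Some list genes that passed in pericyte-like wells were counted but not named. For each member the 3 genes ranking most like it were named as well (Spearman, log2 of CPM plus 1, genes with at least 200 transcripts). A gene of the factor list is not reported here.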

Additional observations from a re-analysis of the deposited data

How the results depend on the processing

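The lists of members called in the 4 tests across genes did not change with other size factors, barcode counts or the filter on low counts. DESeq2 lost only *Nkx2-3* in pericyte-like wells. Of the 5 members higher in telocyte-like wells, 3 were called with sums of at least 5 wells, where *Foxl1* and *Ptch1* had too few counts to be tested, and 3 to 5 when single mice were left out. For iCAF-like against *Cxcl13*/*Grem1* wells it was 1 to 2, and for pericyte-like wells 1 to 3, with 1 under the gate by detected markers. The mouse 1 sums decided *Sox6*, *Ptch1* and *Nkx2-3* as given in the report, and the mouse 2 sums *Gli2*. With mouse 1 or 2 left out, the class test has 1 residual degree of freedom, and its spread leans on that of all genes. Between genotypes 0 members were called in every alternative, including 1 chosen after seeing the data (mice 1, 2, 4 and 5, those with over 50 fibroblast wells). Over all genes, calls fell from 1159 to 664 with DESeq2, to 686 without mouse 1 and to 748 without mouse 2 for telocyte-like wells. They fell from 509 to 205, 268 and 306 for iCAF-like against *Cxcl13*/*Grem1* wells. For pericyte-like wells they fell from 1813 to 895 under the gate by detected markers and to 1124 without mouse 2.

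Signs changed only among values that no test had called. For deleted against control, *Gli3* was -0.13 over all wells less those with *Ptprc* or *Epcam* and -0.14 in mice 1, 2, 4 and 5. With single mice left out it was -0.10 to 0.22, *Gli1* was -0.88 to 0.29, *Gli2* -0.52 to 0.17 and *Nkx2-3* -0.51 to 0.34. In telocyte-like wells *Gli3* was 0.030 with sums of at least 5 wells, and *Gli1* was -0.19 to 0.62 with mice left out. For iCAF-like against *Cxcl13*/*Grem1* wells, *Gli1* was -0.15 under the gate by detected markers, -0.20 without the mouse term and -0.42 with sums of at least 5 wells. *Gli3* was 0.0100 under that gate. With mice left out, *Gli1* was -0.057 to 0.71, *Gli3* -1.01 to 0.38 and *Hhip* -0.46 to 0.077. *Gli1* in pericyte-like wells was -2.22 to 0.12. The causes were not tested.

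Of the shares at equal depth, 0 members were without overlap with thinning to 1000 barcodes and 0 without thinning, and 1 to 5 when single mice were left out. The difference of *Nkx2-3* was 1.10 percentage points without thinning and -5.22 to 5.77 with mice left out, and that of *Gli1* -4.91 to 2.48. *Foxl1*, *Sox6* and *Ptch1* rest on 97, 82 and 57 transcripts in telocyte-like wells, so that depth limits every value of theirs per mouse. No paired analysis was possible because each mouse has 1 genotype and the labels number no replicates across groups; the class tests keep the mouse as a block, and without it 5, 2 and 2 members were called.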
